A study of Mus musculus with 2 samples.

Results

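Nr4a1, Nr4a2, Nr4a3, Egr1, Egr2, Egr3 and Cd69 are genes of the early response to T cell receptor signals, and Nab1 and Nab2 encode corepressors of EGR proteins. These genes were measured here in mouse Th17 cells without Malat1. They were chosen by name in the authors' deposited table, and all 9 were found among its 16385 genes. The RNA came from 2 libraries of Malat1 knockout cells of strain C57BL/6, called independent biological replicates by the submitters. Naive CD4+ T cells had been cultured for 72 h under Th17 conditions, on plates coated with hamster IgG, with anti-CD3ε at 0.25 µg/mL, anti-CD28 at 1 µg/mL, TGF-β at 0.1 ng/mL and IL-6 at 20 ng/mL, and the labels do not describe the knockout allele. The wild-type Th17 libraries of the authors' comparison belong to another series, so genotype and series cannot be told apart. Malat1 itself is not analysed here, and a label of replicate 2 that reads Malat2 was set aside for its title, which reads Malat1.

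NR4A proteins are orphan nuclear receptors and EGR proteins are zinc finger transcription factors, and T cells transcribe both soon after the T cell receptor is engaged, the EGR genes through Ras, ERK and serum response factor and both families through calcium, calcineurin and NFAT. EGR2, EGR3 and the NR4A factors are also known for restraining T cells, in anergy and exhaustion. NAB1 and NAB2 bind EGR proteins and act mainly as their corepressors, and CD69 is a membrane protein that appears early on activated lymphocytes and holds the sphingosine 1-phosphate receptor S1PR1 inside the cell.

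Replicate 1 had a total of 21554852 counts and replicate 2 of 26916169, of which the 9 genes took 0.111% and 0.122%. Levels are given as the authors' normalized counts, that is, counts divided by a size factor for each library. An implied wild-type mean was obtained from the authors' mean over 4 libraries, 2 of each genotype, by taking away both knockout values. The defining transcripts of the labelled cells were present: Cd4 stood at 14216 ± 417 and Cd3e at 3341 ± 93.7 (SD, n = 2 for each). Of 6 measured markers of CD8 T cells and NK cells, Ncr1 and Klrb1c had 0 counts in both libraries, Cd8a had 6 and 4 and Eomes 38 and 57, while Klrd1 had 129 and 120 and Cd8b1 283 and 376. Their summed normalized counts were 441 and 423.

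Nr4a1, which encodes the receptor also called NUR77, was the most abundant of the 9 genes. It lies on chromosome 15 from 101254269 to 101274795 (GRCm38, plus strand). Its normalized counts were 8499 in replicate 1 and 8920 in replicate 2, a mean of 8710 ± 298 (SD, n = 2), and it ranked 343 among all genes of the table. Nr4a2, encoding NURR1, lies on chromosome 2 from 57106830 to 57124003 (minus strand) and had 2377 and 2700. Nr4a3, encoding NOR1, lies on chromosome 4 from 48045153 to 48086447 (plus strand) and had 2812 and 3428. All 3 receptors were thus well above the detection floor in both libraries, and all 3 were higher in replicate 2. Since levels of different genes can be compared only per length, normalized counts were also divided by the length of all annotated exons of a gene in kilobases. That length takes in the exons of every annotated transcript, and which transcripts these cells make was not tested. Levels per kilobase, and their order, shares and ratios between genes, therefore depend on the annotation. On that scale Nr4a1 stood at 2482 ± 84.8, Nr4a2 at 625 ± 56.4 and Nr4a3 at 521 ± 72.8 per kilobase (SD, n = 2 for each). Nr4a1 made up 69.7% of the family's summed level per kilobase in replicate 1 and 67.3% in replicate 2.

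Among the EGR genes the order per kilobase was Egr1, Egr2, Egr3 in both libraries. Egr1, the EGR factor found in most cell types after growth factor signals, lies on chromosome 18 from 34859823 to 34864984 (plus strand) and had normalized counts of 1409 and 1507. Egr2 lies on chromosome 10 from 67535475 to 67542188 (plus strand) and had 559 and 718. Egr3 lies on chromosome 14 from 70077203 to 70082614 (plus strand) and had 341 and 434, the lowest level of the 9 genes. These EGR genes were again higher in replicate 2, each of them. Per kilobase they stood at 325 ± 15.4, 188 ± 33.1 and 87.9 ± 15.03 (SD, n = 2 for each). Egr1 made up 56.5% of their summed level per kilobase in replicate 1 and 52.0% in replicate 2. The fourth gene of the family, Egr4, was named after its values were seen: it was nearly absent, with 8 and 7 counts.

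The corepressor genes were close to each other in normalized counts but not per kilobase, and on both scales they stood above the EGR factors they bind. Nab1 lies on chromosome 1 from 52457294 to 52500679 (minus strand) and had normalized counts of 2129 and 2026. Nab2 lies on chromosome 10 from 127660918 to 127668568 (minus strand), and its normalized counts were 2235 and 2121. Both were slightly lower in replicate 2, unlike the other 7 genes. Per kilobase Nab1 stood at 507 ± 17.8 and Nab2 at 741 ± 27.2 (SD, n = 2 for each). The summed level of the NAB genes per kilobase was 2.30 times that of the EGR genes in replicate 1 and 1.88 times in replicate 2. The level of Nab2 carries an uncertainty of annotation, because its exons share 1050 bases, 35.7% of their length, with Gm16229 on the opposite strand, and smaller stretches with Stat6 (40 bases) and Nemp1 (151 bases). The strand setting of the authors' counting is not given in the sources used here, and reads from these opposite strands may not have been told apart.

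Cd69 lies on chromosome 6 from 129267325 to 129275436 (minus strand). Its normalized counts were 2752 and 3022, a mean of 2887 ± 191 (SD, n = 2), or 444 ± 29.3 per kilobase. The length used for Cd69 was 6509 bases in 4 exon blocks and that for Egr1 4484 bases in 2, and shorter transcripts would give higher levels per kilobase. In the order of levels per kilobase of all annotated exons the 9 genes ran Nr4a1, Nab2, Nr4a2, Nr4a3, Nab1, Cd69, Egr1, Egr2 and Egr3. The libraries of neighbouring genes in this order overlapped for Nr4a3 and Nab1 alone, which differed by 1.03-fold in their means and changed places between the replicates.

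**Figure D1:**
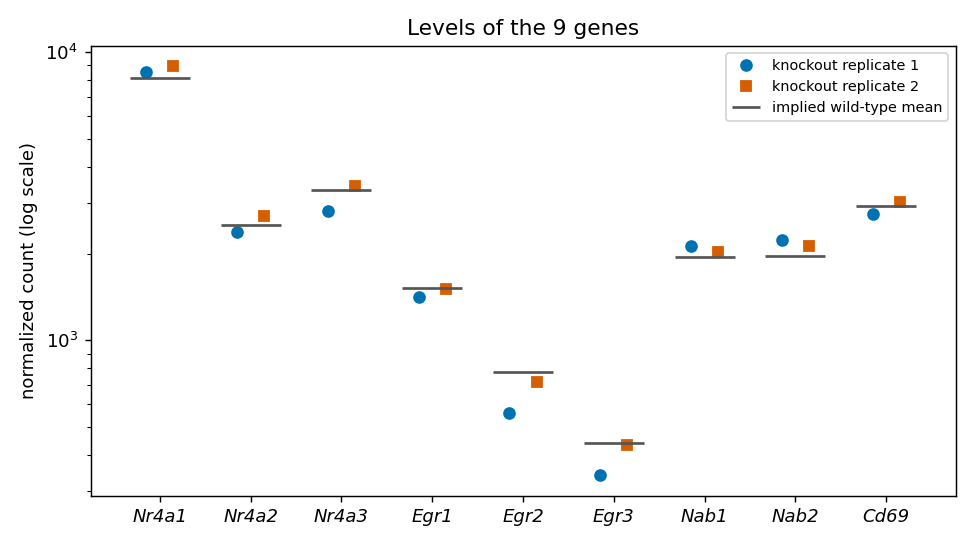
Normalized counts (log scale) of the 9 genes in knockout replicate 1 (circles) and replicate 2 (squares), with the implied wild-type mean as a bar. Nr4a1 lies highest at 8499 and 8920 and Egr3 lowest at 341 and 434, and the bars of the 3 EGR genes lie above both knockout libraries while those of Nr4a1, Nab1 and Nab2 lie below them.

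Windows from 250 bases before to 50 bases after the RefSeq transcript start (GRCm38.p6) were given for 6 of the 9 genes, namely Nr4a1, Nr4a2, Nr4a3, Egr2, Nab1 and Nab2. The binding site of EGR proteins was searched in them as GCGNGGGCG on both strands. It was found in 3 genes, Nab1, Nr4a1 and Nr4a2, and in 5.55% of 32851 windows of all genes. The count is by gene, over 10 windows of the 6 genes, while the share is by window, so these are unlike measures. Nab1 held 3 such sites, beginning at -141, -109 and -38 from the start. Nab2, whose product binds EGR proteins as well, held 0 in its 1 window. The stretches that hold these sites are shown 5′ to 3′ on the strand of the gene, with the matched letters in capitals.
Nab1, chr1:52500463-52500604, minus strand: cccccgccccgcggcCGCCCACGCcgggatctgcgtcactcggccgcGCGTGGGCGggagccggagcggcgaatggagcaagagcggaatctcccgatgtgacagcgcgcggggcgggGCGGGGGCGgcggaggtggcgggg
Nr4a1, chr15:101266771-101266809, plus strand: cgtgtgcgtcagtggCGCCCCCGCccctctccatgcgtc
Nr4a2, chr2:57124054-57124092, minus strand: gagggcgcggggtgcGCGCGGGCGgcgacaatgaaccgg

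Of the other motifs searched on both strands, the NFAT core GGAAA was found in Nr4a2 and Egr2, and in 61.3% of all windows. In Egr2, the window starting at 67537316 held matches beginning at -147, -132 and -64 from the transcript start. The 3 Egr2 windows starting at 67537619, 67537620 and 67537680 overlap and hold the same match. The NR4A site AAAGGTCA (1.51% of all windows), the cyclic AMP response element TGACGTCA (1.79%) and the AP-1 site TGANTCA (7.81%) were not among the letters of the members' windows. None of the matches to different motifs overlapped. These are matches of letters in a reference sequence, and no binding was measured in these samples.

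The knockout libraries differed from each other in these genes. The ratio of replicate 2 to replicate 1 was 1.28 for Egr2 (95% interval 1.16 to 1.43), 1.27 for Egr3 (1.11 to 1.46) and 1.22 for Nr4a3 (1.16 to 1.28), where intervals are exact binomial (Clopper-Pearson) and cover counting error only. For Nr4a2 it was 1.14 (1.08 to 1.197), for Cd69 1.10 (1.05 to 1.15) and for Nr4a1 1.05 (1.02 to 1.08). Counting error alone did not span the difference for these 6 genes. For Egr1 (1.07, 0.999 to 1.15), Nab1 (0.951, 0.899 to 1.01) and Nab2 (0.949, 0.898 to 1.00) it did. Such intervals are narrow at high counts, and the share of all genes they set apart was not computed. The count of 6 is therefore not a result about these genes. The absolute log2 ratio of Nr4a1 exceeded that of 40.7% of the 806 genes within 2-fold of its knockout mean.

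Set beside other genes, the gaps of Egr2, Nr4a3 and Egr3 were wide. Among genes within 2-fold of its own knockout mean, the absolute log2 ratio of Egr2 exceeded that of 96.7% (of 4143 genes), that of Nr4a3 95.8% (of 2751) and that of Egr3 93.6% (of 3312). The NAB genes lay in the middle of their peers, above 43.7% (Nab1) and 45.7% (Nab2). Over the 7338 genes between the lowest and highest knockout mean of the members, the median absolute log2 ratio was 0.09, and 50.5% of genes were higher in replicate 2. The same direction was not general among early response genes: of the 28 others with a mean of at least 50, 10 were higher in replicate 2. Il2, encoding the growth factor interleukin 2 and named after its values were seen, was an exception with 1615 and 3247. Fos, also named after its values were seen and like Egr1 driven by serum response factor, had 440 and 468, and Junb, chosen likewise, had 22825 and 20595, so these did not share the gap of Egr2. With 2 libraries no test of this pattern over samples was possible.

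**Figure D2:**
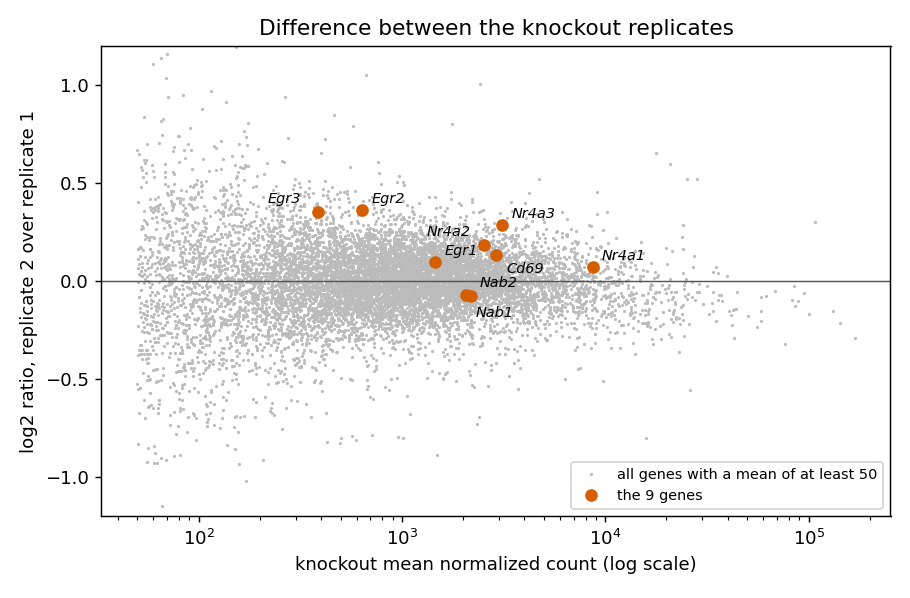
Log2 ratio of replicate 2 to replicate 1 against the knockout mean normalized count (log scale) for genes with a mean of at least 50 (grey) and the 9 genes (coloured). Egr2, Egr3 and Nr4a3 lie high at 0.36, 0.35 and 0.29, and Nab1 and Nab2 lie just under 0, at -0.07 and -0.08. The axis ends at 1.2 in either direction, which leaves 7 grey points outside.

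Transcripts of other tissues stood lower in the knockout libraries than in the wild-type mean, without passing. Of 9 kidney tubule markers and 9 markers of stroma and muscle, all 18 had log2 fold changes below 0 and 0 passed in the authors' deposited table, by DESeq2, with 3 and 2 at an unadjusted p under 0.05. Of all genes 55.9% lay below 0, 0.159% were called and 2.11% had an unadjusted p under 0.05. The summed normalized counts of the kidney markers were 28.1 and 37.2 in the knockout libraries against 32216 in the implied wild-type mean, and those of the stromal markers were 578 and 650 against 29248. Lrp2, Miox, Umod and Pax2 of the first list and Col1a2 of the second had 0 counts in both knockout libraries. Egr1 and Nr4a1 are also transcribed in many cells other than T cells, and the part of such RNA in the implied wild-type means of the 9 genes was not tested. The summed level of the 9 genes was 23113 and 24878 in the knockout libraries and 23541 in the implied wild-type mean. The SE of the log2 fold changes of the 18 markers ran from 0.96 for Dcn to 4.69 for Miox in the authors' deposited table. An implied wild-type mean carries no SD, so how evenly the wild-type libraries share these counts is not known here. RNA of other tissues in the wild-type libraries, fewer cells of a type and less RNA per cell cannot be told apart in these bulk samples.

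Whether the levels of these genes differ between genotypes was addressed by setting knockout against wild-type cells. The knockout cells had been cultured for 72 h, so the response soon after the T cell receptor is engaged was not sampled. By the authors' DESeq2 Wald test, 0 of the 9 genes had an adjusted p under 0.05, against 0.159% of the 14481 genes with an adjusted p. Unadjusted, 0 of 9 had a p under 0.05, against 2.11% of all genes, and the smallest p of the 9 was 0.385. With so few genes called in the whole table, a count of 0 among 9 is near the background and is not a result about these genes. Log2 fold changes lay above 0 for 4 genes and below 0 for 5, with a median of -0.0070, beside -0.031 over all genes of the table and -0.0032 over genes with a mean of at least 50.

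All 3 EGR genes had log2 fold changes below 0, none of which passed. On the log2 scale, Egr2 stood in the authors' deposited table at -0.28 (SE 0.37, adjusted p 1.00), Egr3 at -0.20 (SE 0.39, adjusted p 1.00) and Egr1 at -0.05 (SE 0.20, adjusted p 1.00), as DESeq2 gave them with Benjamini-Hochberg adjustment. As folds of knockout over wild type, the authors' deposited table gives 0.826 for Egr2 with a 95% interval, taken from the SE, of 0.502 to 1.36. Changes anywhere in that range could not be told apart from no change. For Egr3 the fold was 0.872 (0.510 to 1.49) and for Egr1 0.964 (0.739 to 1.26) in the authors' deposited table. The wild-type mean implied by the authors' mean over 4 libraries and both knockout values was 775 for Egr2, 441 for Egr3 and 1514 for Egr1. Each lay above both knockout libraries, by little in replicate 2 for Egr3 (434) and Egr1 (1507). Set against the implied wild-type mean, replicate 1 alone gave log2 ratios of -0.47 for Egr2, -0.37 for Egr3 and -0.10 for Egr1, and replicate 2 alone gave -0.11, -0.02 and -0.0063.

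The NR4A genes did not share 1 direction. For Nr4a1 the authors' deposited table gives a log2 fold change of 0.10 (SE 0.13, adjusted p 1.00), for Nr4a2 0.0091 (SE 0.18, adjusted p 1.00) and for Nr4a3 -0.10 (SE 0.21, adjusted p 1.00), by the authors' DESeq2. Nr4a1 had the narrowest interval of the 9 genes, with a fold of 1.07 between 0.903 and 1.275 in the authors' deposited table. The implied wild-type mean of Nr4a1 was 8136, below both knockout libraries. Those of Nr4a2 (2519) and Nr4a3 (3332) lay between the knockout replicates. The sign for the latter genes therefore turned with the library: Nr4a2 stood at 0.10 in replicate 2 alone and -0.08 in replicate 1 alone, and Nr4a3 at 0.04 and -0.24, as log2 ratios to the implied wild-type mean.

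Nab1 and Nab2 had log2 fold changes above 0, again without passing. The authors' deposited table puts Nab2 at 0.15 (SE 0.17, adjusted p 1.00) and Nab1 at 0.10 (SE 0.18, adjusted p 1.00) on the log2 scale, by the authors' DESeq2. Their folds were 1.11 (95% interval 0.878 to 1.40) and 1.07 (0.843 to 1.36) in the authors' deposited table. The implied wild-type means, 1963 for Nab2 and 1946 for Nab1, lay below both knockout libraries. The ratio of summed NAB to summed EGR level per kilobase was 1.72 for the implied wild-type means, below the 2.30 and 1.88 of the knockout replicates, though none of these genes passed between genotypes. The knockout replicates differed from each other in that ratio by more than replicate 2 differed from the implied wild-type value, and it was not tested.

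Cd69 was the member closest to 0, with a log2 fold change of -0.0070 (SE 0.20, adjusted p 1.00) in the authors' deposited table, by DESeq2. Its fold was 0.995, with a 95% interval from 0.757 to 1.31. Its wild-type level, 2916 as implied, lay between the knockout values of 2752 and 3022. Cd69 has the lowest GC content of the 9 genes, 35.9%, and at that content the smoothed trend of fold change on GC over the table stood at -0.13, against 0.04 at the 60.1% of Nab2. With the trend subtracted, its log2 fold change was 0.12, that of Nr4a1 0.05 and that of Egr1 -0.11, with 0 of 9 genes passing.

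**Figure D3:**
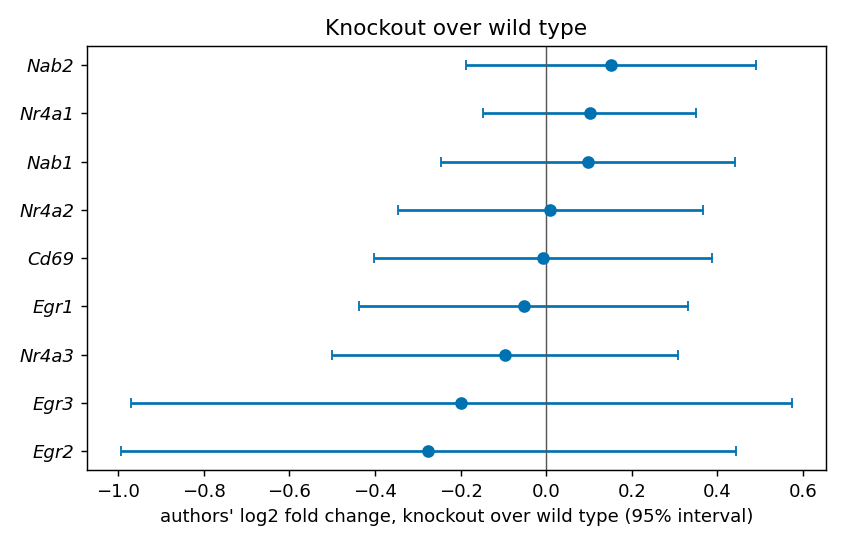
The authors' log2 fold change, knockout over wild type, for each of the 9 genes, with 95% intervals taken from the SE as bars. Every interval spans 0, and those of Egr2 (-0.99 to 0.44) and Egr3 (-0.97 to 0.57) are the widest.

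The difference between the knockout replicates was larger than the fold change between genotypes, both on the log2 scale, in 6 of the 9 genes, namely Nr4a2, Nr4a3, Egr1, Egr2, Egr3 and Cd69. A ratio of single libraries varies more than a ratio of means of 2 libraries, and the share over all genes was not computed. This count is therefore not a result about these genes. For Egr2 the replicates differed by 0.36 and the genotypes by -0.28. In Nr4a1, Nab1 and Nab2 the replicates differed by less, 0.07, -0.07 and -0.08. The SE of the authors' fold changes also varied among the members. Compared with genes within 2-fold of its mean normalized count, Nr4a3 had an SE above 88.6% of genes, Egr2 above 85.1% and Cd69 above 80.6%. Nr4a1 was above 66.8%, Egr3 above 63.0% and Nr4a2 above 48.7%, and Egr1, Nab1 and Nab2 were above 31.7%, 29.2% and 29.1%. The order was not that of the replicate gaps, since Egr3 and Nr4a2 had wider gaps than Cd69. An absolute fold of 1.71 for Egr3 and 1.65 for Egr2 would have been needed to set 0 outside the 95% interval, against 1.19 for Nr4a1.

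**Figure D4:**
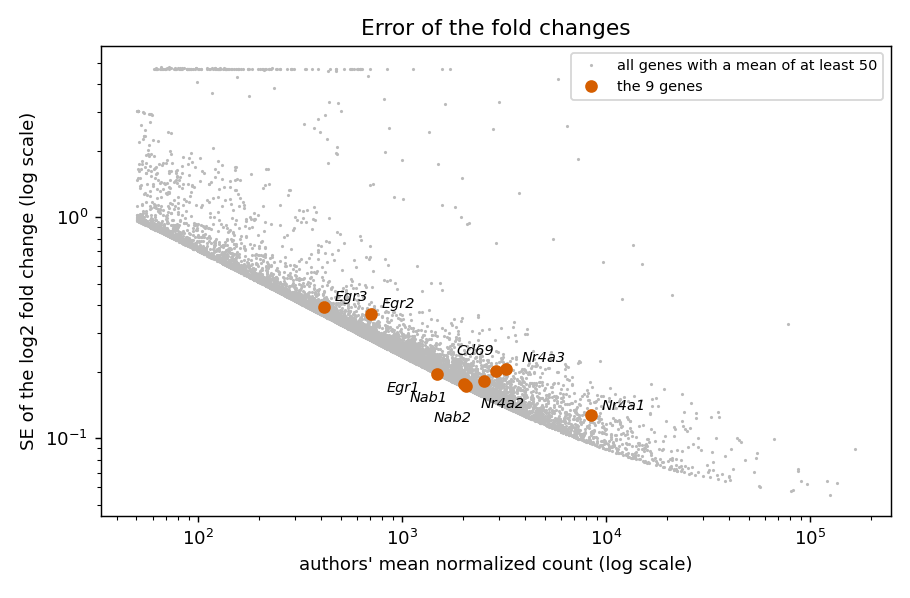
SE of the authors' log2 fold change against their mean normalized count (both log scales) for genes with a mean of at least 50 (grey) and the 9 genes (coloured). Nr4a3, Cd69 and Egr2 lie above most genes of like mean, and Nab1, Nab2 and Egr1 lie below the median.

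Of 120 measured genes in 7 lists of genes that surround these factors in T cell receptor signalling, 0 rose and 0 fell by the authors' DESeq2 at an adjusted p under 0.05, against 0.159% of all genes with an adjusted p. At an unadjusted p under 0.05 there were 3, or 2.5%, against 2.11% of all genes. Both counts are near the background and are not a result about these genes. The 29 other early response genes had a median log2 fold change of -0.07, with 12 above 0 and 17 below. Zfp36l1, which encodes an RNA-binding protein that promotes mRNA decay, had normalized counts of 1744 and 1850 and a log2 fold change of -0.41 (SE 0.18, unadjusted p 0.0245) in the authors' deposited table. Jund, an AP-1 subunit, had 5649 and 4980 and stood at -0.33 (SE 0.17, unadjusted p 0.0497), also in the authors' deposited table. Csrnp1 and Fosl2, a nuclear protein induced by AXIN1 in human cells and an AP-1 subunit, lay above 0 at 0.19 (SE 0.11) and 0.17 (SE 0.11) in the authors' deposited table.

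Upstream of the EGR genes, the Ras, ERK and serum response factor list of 19 genes had a median of 0.0030 with 10 genes above 0. In the authors' deposited table the exchange factor Sos1 stood at -0.35 (SE 0.26), Srf, encoding serum response factor itself, at -0.27 (SE 0.23) and Creb1 at -0.21 (SE 0.22). Creb1 was among the genes that, like Egr2, were higher in replicate 2, with normalized counts of 1084 and 1341. The 9 feedback inhibitors of the ERK pathway had a median of 0.07. Of these, the phosphatase genes Dusp2 (0.26, SE 0.16) and Dusp4 (0.13, SE 0.10) lay above 0 and Spry2 (-1.13, SE 0.73) and Spred1 (-0.24, SE 0.23) below it in the authors' deposited table. Spry2 was low, with a knockout mean of 101 ± 6.88 (SD, n = 2).

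The calcineurin and NFAT list of 15 genes had a median of 0.0055, with 8 above 0. Ppp3ca, which encodes a catalytic subunit of calcineurin, had the smallest unadjusted p of the list, with 416 and 346 normalized counts, an implied wild-type mean of 711, and a log2 fold change of -0.85 (SE 0.44, unadjusted p 0.0508, adjusted p 1.00) in the authors' deposited table by DESeq2. For Ppp3cb, which encodes another catalytic subunit, the authors' deposited table gives -0.21 (SE 0.17). Ppp3cc, which encodes a further catalytic subunit and was named after its values were seen, had 1837 and 1554 normalized counts. Its log2 fold change in the authors' deposited table was 0.0079 (SE 0.19). The kinase Dyrk1a, which phosphorylates NFAT, lay at -0.15 (SE 0.18) and Nfatc3 at 0.10 (SE 0.15), again in the authors' deposited table. Among 10 measured genes for RXR partners of the NR4A receptors and chromatin cofactors the median was -0.0046. Here the authors' deposited table has Hdac2 at -0.27 (SE 0.15), Chd3 at -0.31 (SE 0.26), Hdac1 at 0.08 (SE 0.11) and Rxra at -0.11 (SE 0.24).

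Downstream, the 24 genes linked to EGR2, EGR3, NR4A factors or anergy had a median log2 fold change of 0.09, with 14 above 0. Tnfrsf9, encoding the costimulatory receptor 4-1BB, had normalized counts of 22634 and 18774 and was the gene of this list with an unadjusted p under 0.05, at 0.23 (SE 0.097, unadjusted p 0.0159, adjusted p 1.00) in the authors' deposited table, by DESeq2. It was lower in replicate 2, the opposite of Egr2 and Egr3. The cell cycle inhibitor Cdkn1a (0.14, SE 0.074), the diacylglycerol kinase Dgka (0.24, SE 0.13) and the ubiquitin ligase Cblb (0.20, SE 0.11) followed in the authors' deposited table. These 4 genes were picked by their unadjusted p, and 10 of the 24 genes lay below 0, Rnf128 at -1.91 (SE 1.10, unadjusted p 0.0834) in the authors' deposited table among them, a gene named after its values were seen that had 14 and 31 counts. Of the 14 genes for partners of CD69 and surface markers of activation, 10 lay above 0, with a median of 0.05. S1pr1, whose product CD69 binds and which was named after its values were seen, stood at 0.17 (SE 0.15) and S1pr4 at 0.28 (SE 0.23) in the authors' deposited table. Myl9, a myosin light chain gene of smooth muscle, had 0 counts in both knockout libraries, which allows up to 2.90 and 2.28 normalized counts, against an implied wild-type mean of 1045, and its unadjusted p was 0.128 in the authors' deposited table.

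**Figure D5:**
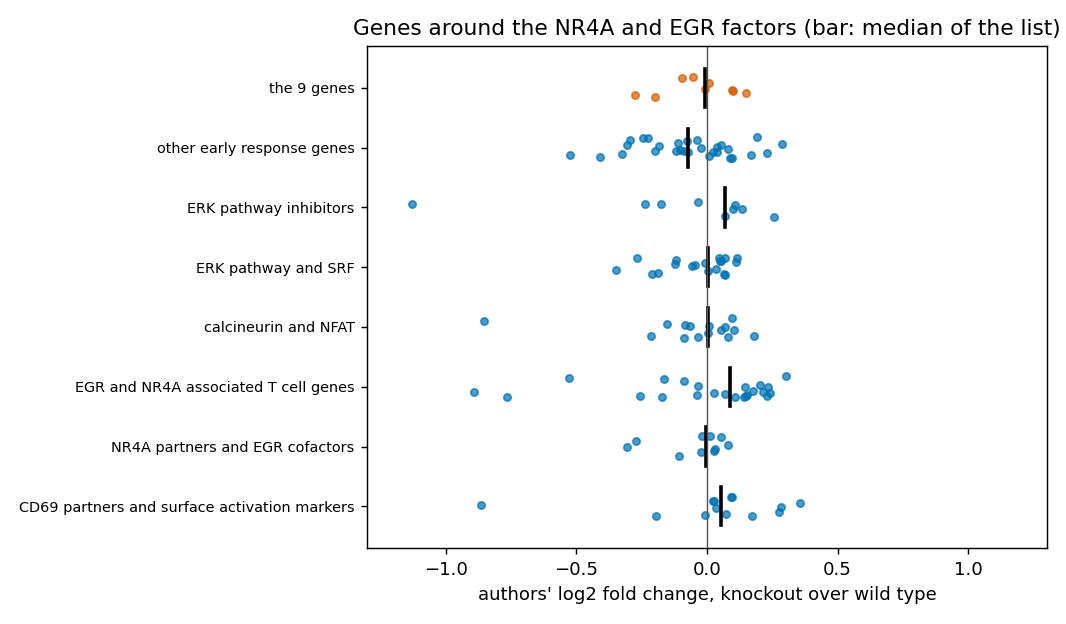
The authors' log2 fold change, knockout over wild type, for each gene of the members and of the 7 lists of related genes, with the median of each as a black bar. The medians lie between -0.07 and 0.09, and the axis ends at 1.3 in either direction, which leaves 2 genes outside, Myl9 and Rnf128.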

How the data were processed

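The 2 knockout libraries form 1 group, taken from the sample titles. The authors deposited raw read counts for each gene. Normalized counts, a signal deposited by the authors, are counts divided by a size factor per library, and the column of means averages that signal over 4 libraries. The log2 fold changes with their SE, the Wald statistic (a score) and the raw and adjusted p-values are the authors' own, per the file headers. The submitters' processing notes list mm10 as the build and STAR 2.6.1a, featureCounts and DESeq2 1.18.1 as tools. The authors' comparison is labelled multifactor, so a factor besides genotype may have been fitted. Which annotation, strand setting and model factors applied is not given in the sources used here. The ratios to the implied wild-type mean and between replicates take no such factor into account.

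The table holds 4 further columns, for wild-type libraries that match no sample here, and these were not used, although their first rows were displayed when the table was opened. No new test between genotypes was therefore run. Calls are the authors' DESeq2 adjusted p under 0.05 over 14481 genes. Of all 16385 genes, 1904 have no adjusted p, and they stayed without one. The implied wild-type mean is 4 times the authors' mean less both knockout values, divided by 2. Over 7043 genes whose mean was at least 500 and whose knockout mean exceeded 2% of the implied wild-type mean, the ratio it gives lay a median of 0.0015 (log2) from the authors' fold change. Exon lengths, positions and GC content came from GENCODE M21 (GRCm38), which matched 16371 genes, and promoter windows from RefSeq (GRCm38.p6). Alternatives used statsmodels 0.14.6 (lowess fraction 0.3, on genes with a mean of at least 50), edgeR 4.0.16 and DESeq2 1.42.0 in R 4.3.3, and SciPy 1.17.1, and the steps were tested on simulated data. The size factors of the knockout libraries were 1.03 and 1.32.

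The members and lists were chosen with earlier results of these data known. Named genes are the 9 members and, of each list, the 4 with the smallest unadjusted p, except some that are not reported here. Genes named otherwise were named after their values were seen. No genes were named for likeness of pattern, since 2 libraries of 1 group give none.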

Additional observations from a re-analysis of the deposited data

How the results depend on the processing

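The count of members called stayed at 0 with an adjusted p under 0.10, over genes with a mean of at least 50, over every gene, unadjusted and after the GC trend was subtracted. Signs turned in 4 cases, in Cd69, Nr4a2 and Nr4a3. Cd69 went to 0.12 after the GC trend was subtracted. With 1 knockout library left out and the ratio taken to the implied wild-type mean, Cd69 ranged from -0.083 to 0.052, Nr4a2 from -0.084 to 0.10 and Nr4a3 from -0.24 to 0.041 on the log2 scale, while Egr2 (-0.47 to -0.11), Egr3 (-0.37 to -0.02), Egr1 (-0.10 to -0.0063), Nr4a1 (0.06 to 0.13), Nab1 (0.06 to 0.13) and Nab2 (0.11 to 0.19) kept their sign. These ratios carry no test, and a kept sign only restates that the implied wild-type mean lay above or below both knockout libraries. The share of such genes over the table was not computed. At an unadjusted p under 0.05 the list of other early response genes held 2 genes and that of EGR and NR4A associated genes 1, against 0 adjusted. The count of 7 members higher in replicate 2 was the same with edgeR's TMM, DESeq2's size factors and column totals.

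No paired analysis was possible because the unused wild-type columns carry no sample of these labels, which leaves 1 group. The authors' test was not refitted without a library for the same reason. With 2 knockout libraries, the 95% intervals of Egr2 (0.502-fold to 1.36-fold) and Egr3 (0.510-fold to 1.49-fold) stay wide in both directions.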
